A study of Mus musculus with 4 samples.

Results

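Cardiomyocyte-like cells were examined in embryoid bodies, aggregates of differentiating embryonic stem cells, grown from the mouse line R1. The cells were selected on the UMIs of 7 genes, Myl7, Myl4, Myl3, Myh6, Nkx2-5, Smpx and Ryr2, of which at least 4 had to have a UMI (unique molecular identifier, a counted mRNA molecule). Barcodes also needed 500 detected genes or more, and those with over 15% mitochondrially encoded UMIs were left out. This rule chose 127 of 13808 kept cells (0.920%). At day 8 there were 26 cells of embryoid bodies given 7.33 days of normoxia and then 16 h of hypoxia (hypoxia, day 8), and 41 cells after 8 days of normoxia (normoxia, day 8). At day 10 there were 45 cells after 8 days of normoxia and then 48 h of hypoxia (hypoxia, day 10), and 15 cells after 10 days of normoxia (normoxia, day 10). All 4 groups share the unmodified R1 line and each is 1 library. A difference between conditions cannot be told apart from a difference between cultures or libraries, so no test was possible. No source used here gives the oxygen level. The libraries were made with droplet 3' chemistry, and the values are counts of UMIs.

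Cardiomyocytes are the contracting muscle cells of the heart and among the first specialised cells to appear in embryoid bodies, where they can form beating areas. Their force comes from the sarcomere, in which myosin thick filaments pull on actin thin filaments when calcium, released from internal stores through the ryanodine receptor, binds troponin. Early cardiomyocytes hold atrial and ventricular, fetal and adult isoforms side by side. When oxygen is short, the transcription factor HIF induces glucose transport and glycolysis genes in most cell types.

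Because the cells were chosen by the UMIs of these 7 genes, the values of those genes are a description. The chosen cells were of 2 kinds. Of the 127, 93 drew at least 0.1% of their UMIs from the 7 genes (median 0.918%, range 0.102% to 4.55%) and are called high-content below. The other 34, called low-content, drew a median of 0.0219% (0.00572% to 0.0696%). The line of 0.1% was set after the values were seen, and 9 cells lay between 0.05% and 0.2%. The 20 other cardiomyocyte markers outside the rule (Tnnt2, Actc1, Ttn and the like) largely separated the same cells, though the ranges overlapped. They made up a median of 1.59% of UMIs in high-content cells (0.133% to 5.33%), against 0.0662% in low-content cells (0.0217% to 0.226%).

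**Figure D1:**
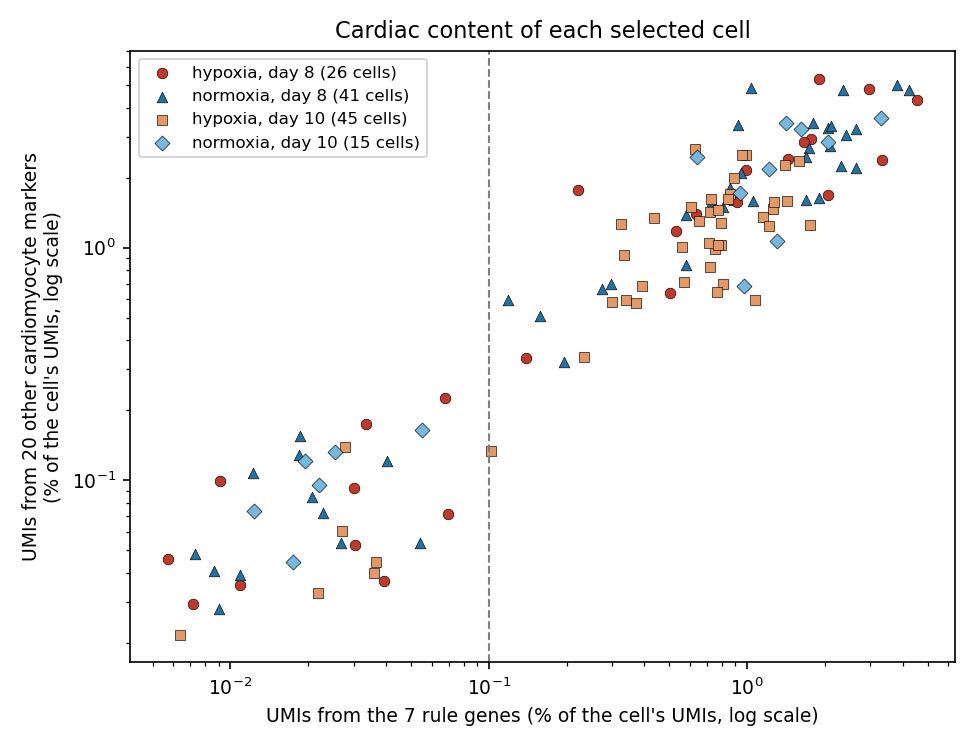
Each point is 1 of the 127 selected cells, with the percentage of its UMIs from the 7 rule genes on the x axis and from 20 other cardiomyocyte markers on the y axis, both on log scales, coloured by library; the dashed line marks 0.1%. The 34 low-content cells lie at or under 0.226% on the y axis, and 1 of the 93 high-content cells lies under 0.25%.

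At the edge of the rule, the 54 cells with exactly 4 rule genes had a median of 0.0399% of UMIs from them, and 22 of these cells were high-content. The 281 cells just outside, with exactly 3, had a median of 0.0211%, and 17 of them reached 0.1%. With 5 rule genes 26 of 28 cells were high-content, and with 6 or 7 all 27 and all 18 were. Outside the rule, 117 kept cells reached 0.1%, at a median of 3998 UMIs and of 7 rule-gene UMIs per cell.

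Markers outside the rule bore out the label more in the high-content cells than in the low-content cells, though not each of them. Actc1, cardiac actin, was detected in 92.5% of high-content and 5.88% of low-content cells, and Ttn, the giant spring of the sarcomere, in 93.5% of high-content and 11.8% of low-content cells. In a cell type that should lack them, 306 macrophage-like cells by their own markers, Actc1 was detected in 0.980%, Ttn in 9.15% and Myh6 in 0 of the 306, which allows a share of up to 0.980%. Tnnt2 was detected in 96.8% of high-content, 52.9% of low-content and 25.2% of other kept cells, and Myh7 in 88.2%, 35.3% and 1.67%. Myl2, Tnni3, Hcn4 and Nppa were detected in 19.4%, 44.1%, 32.3% and 4.30% of high-content cells. In low-content cells they were detected in 0%, 2.94%, 20.6% and 14.7%. These shares are not matched for depth: the median was 16670 UMIs per cell in high-content, 66392.5 in low-content and 21009.5 in macrophage-like cells. Ryr2, the calcium release channel, marked the cells least, since 46.8% of all other kept cells had a UMI of it.

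Low-content cells met the rules of some other cell types more often than high-content cells or all kept cells, at about 4 times the depth of high-content cells. The endoderm rule (at least 4 of 7 markers such as Ttr and Apob) was met by 1 of 93 high-content cells and 13 of 34 low-content cells, and by 2.91% of all kept cells. The epicardial rule was met by 2 high-content and 14 low-content cells (2.15% and 41.2%), and by 14.8% of all kept cells. The smooth muscle rule was met by 34 high-content and 24 low-content cells (36.6% and 70.6%), and by 33.0% of all kept cells. The fibroblast rule was met by 21 high-content and 26 low-content cells (22.6% and 76.5%), but by 81.0% of all kept cells, so low-content cells lay no higher than the rest for it. The part of depth in these shares was not tested. The endothelial rule was met by 0 of the 127, which allows a share of up to 2.36%. It was met by 0.442% of all kept cells, so this 0 does not set the selected cells apart. Ghrl, the gene of the hormone ghrelin, had 0 UMIs in high-content cells of all 4 libraries. In low-content cells at day 8 it was at 1890.0 CPM (UMIs of a gene per 1000000 UMIs, both summed over cells) in hypoxia and 221 CPM in normoxia. Top2a, a topoisomerase of dividing cells, was detected in 18.3% of high-content, 70.6% of low-content and 35.4% of other kept cells. High-content cells supplied 33.6% of the selected cells' UMIs in hypoxia and 53.0% in normoxia at day 8, and 64.1% in hypoxia and 12.8% in normoxia at day 10, since low-content cells are deeper. The values below are therefore given for high-content cells, beside those of all selected cells where conditions are compared.

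High-content cells numbered 16 in hypoxia and 29 in normoxia at day 8, and 39 in hypoxia and 9 in normoxia at day 10. Their depth differed. The median was 23245.5 and 23193 UMIs per cell in hypoxia and normoxia at day 8, and 9995 and 1685 in hypoxia and normoxia at day 10. Of the 9 cells of normoxia, day 10, 7 had under 4000 UMIs, so that library's values rest on few counts (54956 UMIs in all). The deepest cells held 26515 and 14747 of these UMIs, so its summed levels and isoform shares come mostly from them. No ratio was formed against that library in high-content cells. Of the cell barcodes kept, 13 occurred in 2 libraries, and 0 of the selected ones did. In the whole libraries, 3489, 3374, 4746 and 2802 barcodes held 78354814, 85379390, 77012257 and 63117306 UMIs in hypoxia and normoxia at day 8 and in hypoxia and normoxia at day 10. Intervals below are at 95% and cover counting error only, not differences between cells, cultures or libraries.

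Promoter windows of the marker genes are shown as a description. The rule chose the cells partly by sarcomere genes, so that these were high together was largely fixed. RefSeq windows (build GRCm38.p6, 250 bases before to 50 after the start) were found for 32 of 37 genes, namely the rule genes, the 20 other markers and the 20 genes highest over other cells. The CArG box, the motif bound by serum response factor (CC, 6 bases of A or T, GG), was present in 6 of the 32 genes and in 1.82% of all 26742 genes with a window. The MCAT motif of TEAD factors (CATTCC) was present in 11 of 32 genes, against 16.5% of all genes, a GATA motif (AGATAA) in 10 against 12.7%, TATAAA in 8 against 15.6%, and the MEF2 site in 2 against 3.68%. Both strands were searched, and a match is a description, not a binding site. The windows of 3 genes with a CArG box follow, with each motif match in capitals. Matches to different motifs overlapped in 1 of the 32 genes, Slc24a2, and in none of those printed.
Actc1 (chr2:114052826-114053125, minus strand): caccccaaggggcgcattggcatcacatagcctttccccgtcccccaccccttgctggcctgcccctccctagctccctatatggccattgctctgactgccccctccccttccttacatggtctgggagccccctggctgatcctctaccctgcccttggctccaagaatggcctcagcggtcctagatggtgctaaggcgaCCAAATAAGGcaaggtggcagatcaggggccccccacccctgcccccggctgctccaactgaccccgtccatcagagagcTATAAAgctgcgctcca
Myl7 (chr11:5898733-5899032, minus strand): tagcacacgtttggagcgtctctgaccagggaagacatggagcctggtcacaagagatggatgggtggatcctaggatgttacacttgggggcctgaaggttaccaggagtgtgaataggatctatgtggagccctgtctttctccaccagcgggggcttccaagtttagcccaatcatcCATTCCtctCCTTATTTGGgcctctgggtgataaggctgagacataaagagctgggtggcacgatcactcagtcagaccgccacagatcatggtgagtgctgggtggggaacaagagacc
Myl3 (chr9:110763428-110763727, plus strand): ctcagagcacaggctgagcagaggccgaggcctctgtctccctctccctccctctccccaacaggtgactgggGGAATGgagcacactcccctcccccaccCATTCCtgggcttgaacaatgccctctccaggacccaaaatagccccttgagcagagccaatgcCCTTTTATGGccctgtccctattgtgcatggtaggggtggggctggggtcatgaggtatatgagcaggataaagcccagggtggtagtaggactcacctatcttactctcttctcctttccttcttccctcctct

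Against the other cells of their own library, 99 of 6666 genes (1.49%) were at least 2-fold higher in the selected cells in all 4 libraries. By their smallest log2 ratio among the 4 libraries, the highest were Actc1 (at least 7.93 in each), Ttn (7.80), Myh6 (7.17), Myl7 (6.89), Myl3 (6.81) and Myh7 (6.22). Next came Cox6a2 (5.68), the muscle form of a cytochrome oxidase subunit, Csrp3 (5.40), a Z-disc protein, Trim55 (5.11), a sarcomeric ubiquitin ligase, Myl4 (4.96), Mybpc3 (4.91), a myosin-binding protein, and Rbm24 (4.82), an RNA-binding protein of muscle splicing. Ppp1r14c (4.82), Erbb4 (4.58), the neuregulin receptor, Myo18b (4.42), 5430431A17Rik (4.26), Apobec2 (4.25), Nebl (4.15), a thin filament protein, Tnnc1 (4.15), troponin C, and Slc24a2 (4.07) completed the 20. The choice of cells by their sarcomere genes fixes much of this order.

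Of the thick filament genes, Myl7, the atrial regulatory light chain (mm10 chr11:5896637-5898782, minus strand), was in high-content cells at 4844 CPM in hypoxia and 6496 CPM in normoxia at day 8, and 2390.0 CPM in hypoxia and 4877 CPM in normoxia at day 10. In other cells it was at 2.89 CPM in hypoxia and 2.84 CPM in normoxia at day 8, and 11.7 CPM in hypoxia and 4.73 CPM in normoxia at day 10. Each of the 93 high-content cells had a UMI of Myl7. Myh6, the alpha myosin heavy chain (mm10 chr14:54941921-54966927, minus strand), was at 783 CPM in hypoxia and 989 CPM in normoxia at day 8, and 1501 CPM in hypoxia and 2256 CPM in normoxia at day 10. It was under 1 CPM in other cells of each library. Myh7, the beta heavy chain, was at 935 CPM in hypoxia and 1072 CPM in normoxia at day 8. Day 10 gave 429 CPM in hypoxia and 2711 CPM in normoxia. Myl4, the atrial essential light chain, was at 3847 CPM in hypoxia and 3683 CPM in normoxia at day 8. At day 10 it was at 1553 CPM in hypoxia and 2748 CPM in normoxia. Myl3, the ventricular essential light chain, was at 1324 CPM in hypoxia and 2198 CPM in normoxia at day 8. Its day 10 level was 879 CPM in hypoxia and 2347 CPM in normoxia. Day 10 under hypoxia was the lowest library for Myl7, Myl4, Myl3 and Myh7, and not for Myh6. Ttn was at 3463 CPM in hypoxia and 3811 CPM in normoxia at day 8. Day 10 gave 1038 CPM in hypoxia and 6150.4 CPM in normoxia. Trim63, a ubiquitin ligase of the sarcomere, was at 12.2 CPM in hypoxia and 19.8 CPM in normoxia at day 8, and 76.1 CPM in hypoxia and 127 CPM in normoxia at day 10.

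Of the thin filament genes, Actc1 was at 4995 CPM in hypoxia and 4393 CPM in normoxia at day 8. At day 10 it was at 3803 CPM in hypoxia and 7642 CPM in normoxia. Other cells held 5.89 CPM in hypoxia and 5.84 CPM in normoxia at day 8, and 1.37 CPM in hypoxia and 0.482 CPM in normoxia at day 10. Tnnt2, cardiac troponin T, was at 2477 CPM in hypoxia and 3085 CPM in normoxia at day 8. Its day 10 level was 751 CPM in hypoxia and 1692 CPM in normoxia. Tnnc1 was at 1478 CPM in hypoxia and 2009 CPM in normoxia at day 8. Day 10 gave 359.7 CPM in hypoxia and 619 CPM in normoxia. Tnni1, slow skeletal troponin I, was at 1346 CPM in hypoxia and 1501 CPM in normoxia at day 8. At day 10 it was at 546 CPM in hypoxia and 1055 CPM in normoxia. For Tnnt2, Tnnc1 and Tnni1 day 10 was below day 8 in both conditions. Smooth muscle actin, Acta2, was at 5583 CPM in hypoxia and 5982 CPM in normoxia at day 8, and 1717 CPM in hypoxia and 819 CPM in normoxia at day 10. It was no marker, since other cells held 3670.4 CPM in hypoxia and 2829.5 CPM in normoxia at day 8, and 3612 CPM in hypoxia and 1055 CPM in normoxia at day 10.

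**Figure D2:**
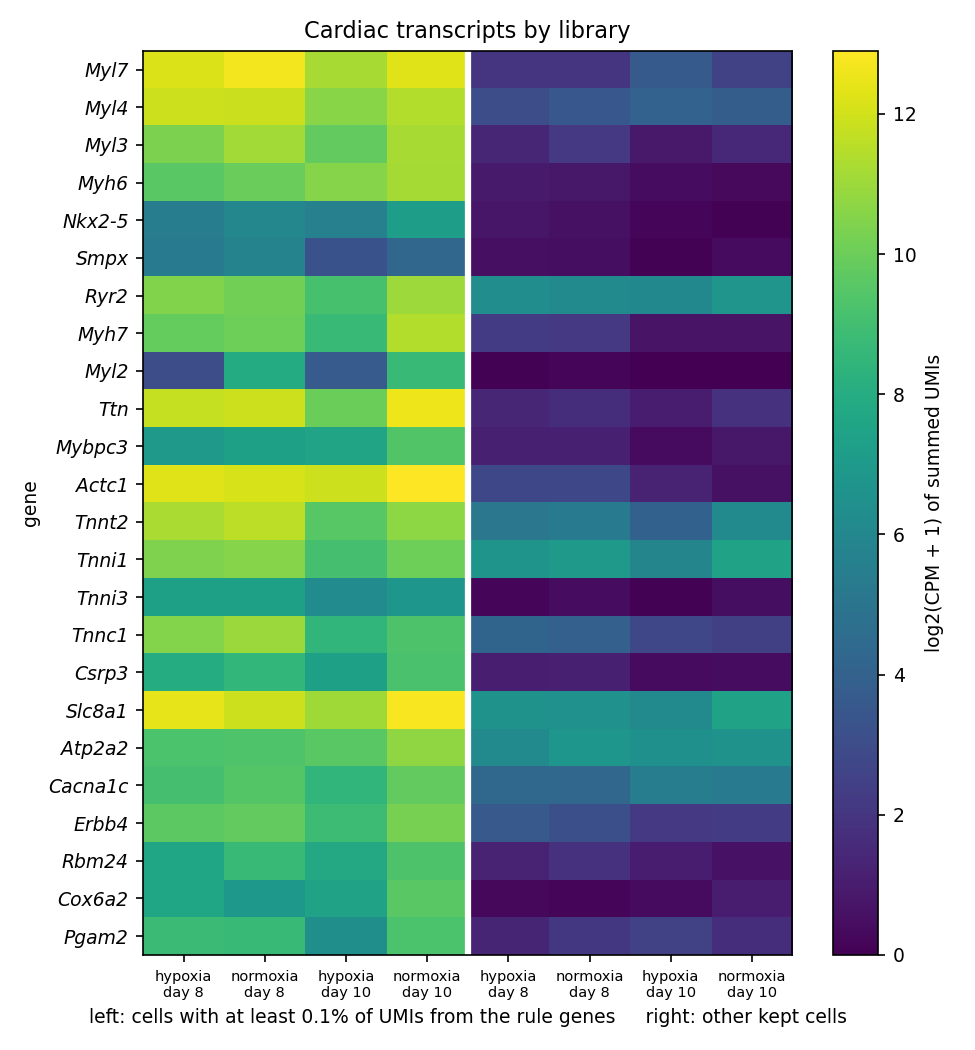
Colour gives log2(CPM + 1) of summed UMIs for 24 genes (rows) in high-content cells of the 4 libraries (left columns) and in other kept cells (right columns). Ryr2, Slc8a1, Tnni1 and Atp2a2 have visible levels in other cells, while Myh6, Tnni3 and Cox6a2 are near 0 there, and Myl2 stands out for its spread among the left columns.

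Of the calcium and rhythm genes, Slc8a1, the sodium-calcium exchanger, was at 5450.5 CPM in hypoxia and 3911 CPM in normoxia at day 8. Its day 10 level was 2146 CPM in hypoxia and 6933 CPM in normoxia. Other cells held 97.2 CPM in hypoxia and 92.2 CPM in normoxia at day 8, and 70.2 CPM in hypoxia and 171 CPM in normoxia at day 10. Ryr2 was at 1424 CPM in hypoxia and 1154 CPM in normoxia at day 8. Day 10 gave 566 CPM in hypoxia and 2074 CPM in normoxia. Atp2a2, the calcium pump SERCA2, was at 609 CPM in hypoxia and 640.2 CPM in normoxia at day 8. At day 10 it was at 768 CPM in hypoxia and 1710.5 CPM in normoxia. Its inhibitor phospholamban, Pln, was at 17.1 CPM in hypoxia and 40.9 CPM in normoxia at day 8, and 12.1 CPM in hypoxia and 18.2 CPM in normoxia at day 10. Casq2, cardiac calsequestrin, had 0 UMIs in high-content cells of all 4 libraries. Cacna1c, the L-type calcium channel, was at 538 CPM in hypoxia and 690.3 CPM in normoxia at day 8. Its day 10 level was 361 CPM in hypoxia and 892 CPM in normoxia. Hcn4, a pacemaker channel, was at 66.1 CPM in hypoxia and 44.9 CPM in normoxia at day 8. For Hcn4 day 10 gave 5.19 CPM in hypoxia and 36.4 CPM in normoxia.

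Of the transcription factors, Gata4 was at 162 CPM in hypoxia and 153 CPM in normoxia at day 8. At day 10 it was at 259 CPM in hypoxia and 182 CPM in normoxia. Nkx2-5, the early cardiac homeobox factor, was at 41.6 CPM in hypoxia and 60.7 CPM in normoxia at day 8. At day 10 it was at 48.4 CPM in hypoxia and 146 CPM in normoxia. It was found in 7 of 16 high-content cells in hypoxia and 19 of 29 in normoxia at day 8, and in 14 of 39 in hypoxia and 4 of 9 in normoxia at day 10. Tbx5, a factor of the first heart field, was at 29.4 CPM in hypoxia and 34.3 CPM in normoxia at day 8. Its day 10 level was 62.3 CPM in hypoxia and 91.0 CPM in normoxia. Myocd, the coactivator of serum response factor, was at 448 CPM in hypoxia and 387 CPM in normoxia at day 8. Day 10 gave 74.4 CPM in hypoxia and 309 CPM in normoxia. Other cells held 6.04 CPM in hypoxia and 4.45 CPM in normoxia at day 8, and 14.9 CPM in hypoxia and 1.95 CPM in normoxia at day 10. Ckm, muscle creatine kinase, a mark of mature muscle, had 0 UMIs in the selected cells. The natriuretic peptide gene Nppa had 0 UMIs in high-content cells in hypoxia and was at 7.92 CPM in normoxia at day 8, and had 0 in hypoxia and 146 CPM in normoxia at day 10. The day 10 level came from 2 of 9 cells with 8 UMIs in all, 1 of them at 5556 CPM.

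Isoform pairs were compared as the share of one gene in the UMIs of both, within high-content cells. Levels of different genes were not compared, since 3' counting does not put them on one scale, and a share is read only across libraries. The Myh7 share of Myh7 and Myh6 was 54.4% (50.6 to 58.1) in hypoxia and 52.0% (49.5 to 54.5) in normoxia at day 8, and 22.2% (19.8 to 24.8) in hypoxia and 54.6% (48.5 to 60.6) in normoxia at day 10. Hypoxia at day 10 thus stood apart from the other 3 libraries. The Myl2 share of Myl2 and Myl7, ventricular and atrial regulatory light chains, was 0.151% (0.0312 to 0.442) in hypoxia and 3.59% (3.09 to 4.13) in normoxia at day 8, and 0.504% (0.203 to 1.04) in hypoxia and 7.90% (5.08 to 11.6) in normoxia at day 10. It was lower in hypoxia at both ages, outside the counting intervals. Myl2 itself was detected in 2 of 16 high-content cells in hypoxia and 11 of 29 in normoxia at day 8, and in 1 of 39 in hypoxia and 4 of 9 in normoxia at day 10. The share of Tnni3, adult cardiac troponin I, in Tnni3 and Tnni1 was 10.6% (8.25 to 13.3) in hypoxia and 9.76% (8.18 to 11.5) in normoxia at day 8, and 11.7% (8.59 to 15.5) in hypoxia and 9.38% (3.52 to 19.3) in normoxia at day 10. Its intervals overlapped in all 4 libraries.

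Muscle isoforms of metabolic enzymes were likewise present. The share of Pgam2, muscle phosphoglycerate mutase, in Pgam2 and Pgam1 was 21.4% (18.7 to 24.3) in hypoxia and 29.8% (27.1 to 32.6) in normoxia at day 8, and 5.94% (4.43 to 7.78) in hypoxia and 44.0% (32.5 to 55.9) in normoxia at day 10. It was under 1% in other cells of each library, at 0.129% in hypoxia and 0.750% in normoxia at day 8, and 0.572% in hypoxia and 0.626% in normoxia at day 10. The Cox6a2 share of Cox6a2 and Cox6a1 was 45.7% (38.2 to 53.4) in hypoxia and 34.9% (29.1 to 41.1) in normoxia at day 8, and 48.1% (41.2 to 55.1) in hypoxia and 81.1% (68.0 to 90.6) in normoxia at day 10. In other cells it was 0.0944% in hypoxia and 0.0683% in normoxia at day 8, and 0.183% in hypoxia and 0.464% in normoxia at day 10. Acta1, skeletal actin, took 6.80% (5.78 to 7.94) in hypoxia and 1.89% (1.46 to 2.40) in normoxia at day 8, and 0.136% (0.0281 to 0.398) in hypoxia and 0% (0 to 0.874) in normoxia at day 10 of the UMIs of Acta1 and Actc1.

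**Figure D3:**
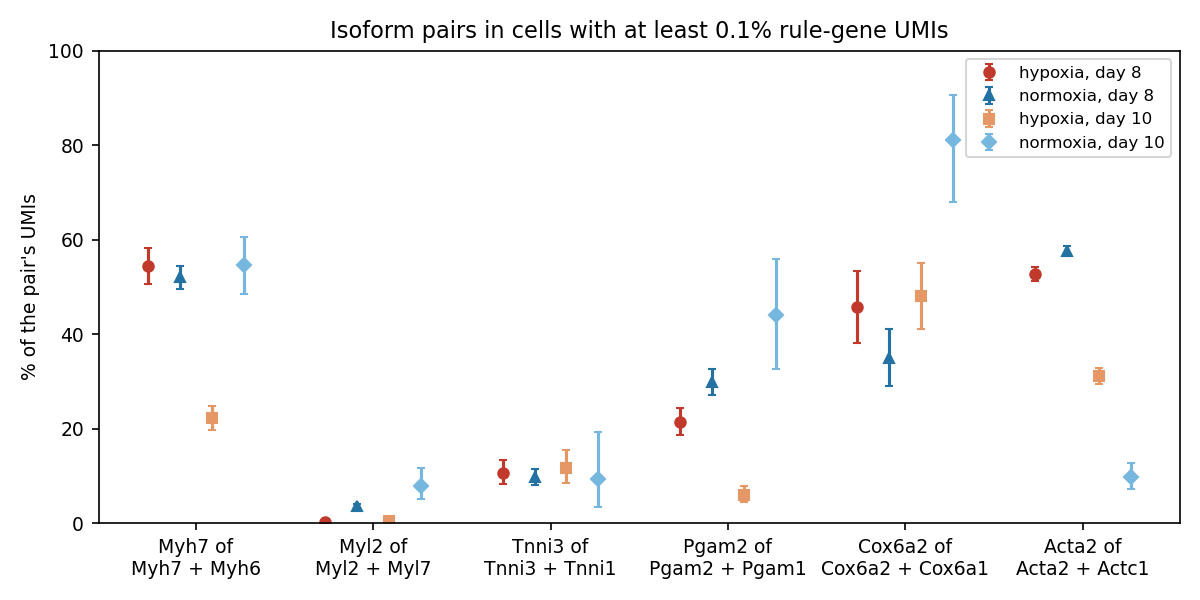
Points give the percentage of a pair's UMIs that come from the first-named gene in high-content cells, for 6 pairs, coloured by library, and bars are exact 95% binomial intervals (counting error only). The Myh7 share in hypoxia at day 10 was 22.2%, under the other 3 libraries, and the Myl2 share was 0.151% and 0.504% in hypoxia at days 8 and 10.

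The share of selected cells among kept cells was 0.777% (exact binomial interval 0.508% to 1.14%) in hypoxia and 1.29% (0.930% to 1.75%) in normoxia at day 8. At day 10 it was 0.975% (0.712% to 1.30%) in hypoxia and 0.560% (0.314% to 0.922%) in normoxia. The order of hypoxia and normoxia was thus opposite at the 2 ages, and the intervals overlapped at both. High-content cells alone gave 0.478% (0.274% to 0.776%) in hypoxia and 0.915% (0.614% to 1.31%) in normoxia at day 8, and 0.845% (0.601% to 1.15%) in hypoxia and 0.336% (0.154% to 0.637%) in normoxia at day 10, in the same order. When cells meeting the rule of another class were left out, the order at day 8 turned, to 0.209% in hypoxia and 0.158% in normoxia. Each of these shares rests on fewer than 10 cells. High-content cells were among those left out. At day 8, 5 of 16 of them met the smooth muscle rule in hypoxia and 22 of 29 in normoxia.

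After 16 h of hypoxia at day 8, HIF targets and glycolysis genes were higher in cardiomyocyte-like cells and mitochondrially encoded transcripts were lower. Genes had to average 20 CPM and hold 50 UMIs over the pair of libraries to be counted. In high-content cells, 173 of 3779 (4.58%) were at least 2-fold higher in hypoxia and 192 (5.08%) at least 2-fold lower. Among all selected cells, 324 of 6747 genes (4.80%) were higher and 249 (3.69%) lower, or 398 and 180 with TMM scaling. At the 1.5-fold line used for lists, 16.1% of 6988 genes were higher and 19.7% lower in high-content cells (median of all genes -0.03), and 13.3% of 9833 were higher and 17.6% lower in all selected cells (median -0.07). In other cells of the same libraries, 4.52% were higher and 10.3% lower (median -0.12).

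Of the HIF targets, 27 of 37 measured members were at least 1.5-fold higher and 0 at least 1.5-fold lower, with a median log2 ratio of 1.11, in high-content cells. Of 43 members measured in all selected cells, 34 were higher and 0 lower (median 1.25). Of 42 measured in other cells, 37 were higher and 0 lower (median 1.81). P4ha1, a collagen prolyl hydroxylase, was at 487 CPM in hypoxia and 84.5 CPM in normoxia, a log2 ratio of 2.51 (interval 2.11 to 2.96) in high-content cells, against 1.77 in other cells. P4ha2, of the same family, was at 443 CPM in hypoxia and 55.4 CPM in normoxia, a log2 ratio of 2.98 (interval 2.51 to 3.52). Ddit4, an inhibitor of mTORC1, was at 162 CPM in hypoxia and 14.5 CPM in normoxia, a log2 ratio of 3.39 (interval 2.54 to 4.55). Ndrg1 was at 95.5 CPM in hypoxia and had 0 UMIs in normoxia, at least 24.1-fold higher when set against a floor of 3 counts. Vegfa, the angiogenic growth factor, was at 90.6 CPM in hypoxia and 35.6 CPM in normoxia, a log2 ratio of 1.32 (interval 0.59 to 2.12). Slc2a1, the glucose transporter, was at 857 CPM in hypoxia and 436 CPM in normoxia, a log2 ratio of 0.97 (interval 0.75 to 1.20). Egln3, a HIF prolyl hydroxylase, was at 68.5 CPM in hypoxia and 27.7 CPM in normoxia, a log2 ratio of 1.28 (interval 0.44 to 2.20), and Pdk1, a brake on pyruvate entry into mitochondria, at 127 CPM in hypoxia and 64.7 CPM in normoxia, a log2 ratio of 0.97 (interval 0.39 to 1.57).

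Several HIF targets had a high level in normoxic high-content cells and a small ratio. Ldha, lactate dehydrogenase A, was at 2939 CPM in hypoxia and 2328 CPM in normoxia in high-content cells (log2 ratio 0.34 (interval 0.23 to 0.44)), against 1825 CPM in hypoxia and 522 CPM in normoxia in other cells (1.80). Bnip3, a mitophagy receptor, was at 313 CPM in hypoxia and 261 CPM in normoxia (log2 ratio 0.26 (interval -0.07 to 0.59)), against 266 CPM in hypoxia and 54.9 CPM in normoxia in other cells (2.25). Cox4i2, the hypoxia form of a cytochrome oxidase subunit, was at 93.0 CPM in hypoxia and 96.4 CPM in normoxia (log2 ratio -0.05 (interval -0.66 to 0.53)), against 32.9 CPM in hypoxia and 4.20 CPM in normoxia in other cells (2.70). For each of these genes the normoxic level in high-content cells lay well above that in other normoxic cells, and the hypoxic levels lay closer together.

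As a whole, HIF targets made up 1.23% of UMIs in hypoxia and 0.726% in normoxia in high-content cells at day 8, and 1.17% of UMIs in hypoxia and 0.395% in normoxia in other cells. Per high-content cell they took a lowest of 0.699%, a median of 1.23% and a highest of 1.89% in hypoxia, and a lowest of 0.314%, a median of 0.770% and a highest of 1.17% in normoxia. Glycolysis enzymes made up 2.48% of UMIs in hypoxia and 1.51% in normoxia in high-content cells, and 1.62% of UMIs in hypoxia and 0.529% in normoxia in other cells. Per high-content cell they took a lowest of 1.55%, a median of 2.24% and a highest of 4.67% in hypoxia, and a lowest of 0.467%, a median of 1.56% and a highest of 2.67% in normoxia, so the 2 groups of cells overlapped in range. Of the glycolysis list, 11 of 19 measured members were at least 1.5-fold higher and 2 at least 1.5-fold lower, with a median log2 ratio of 0.60, in high-content cells, against 14 higher and 2 lower of 18 and a median of 1.62 in other cells. Pgk1, phosphoglycerate kinase, was at 3192 CPM in hypoxia and 1527 CPM in normoxia (log2 ratio 1.06 (interval 0.95 to 1.18)), and Pfkp, platelet-type phosphofructokinase, at 475 CPM in hypoxia and 124 CPM in normoxia (1.93 (interval 1.57 to 2.31)). Hexokinase Hk2, at 299 CPM in hypoxia and 338 CPM in normoxia, and the muscle forms Eno3, at 272 CPM in hypoxia and 322 CPM in normoxia, and Pgam2, at 445 CPM in hypoxia and 422 CPM in normoxia, had log2 ratios of -0.18, -0.24 and 0.08.

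**Figure D4:**
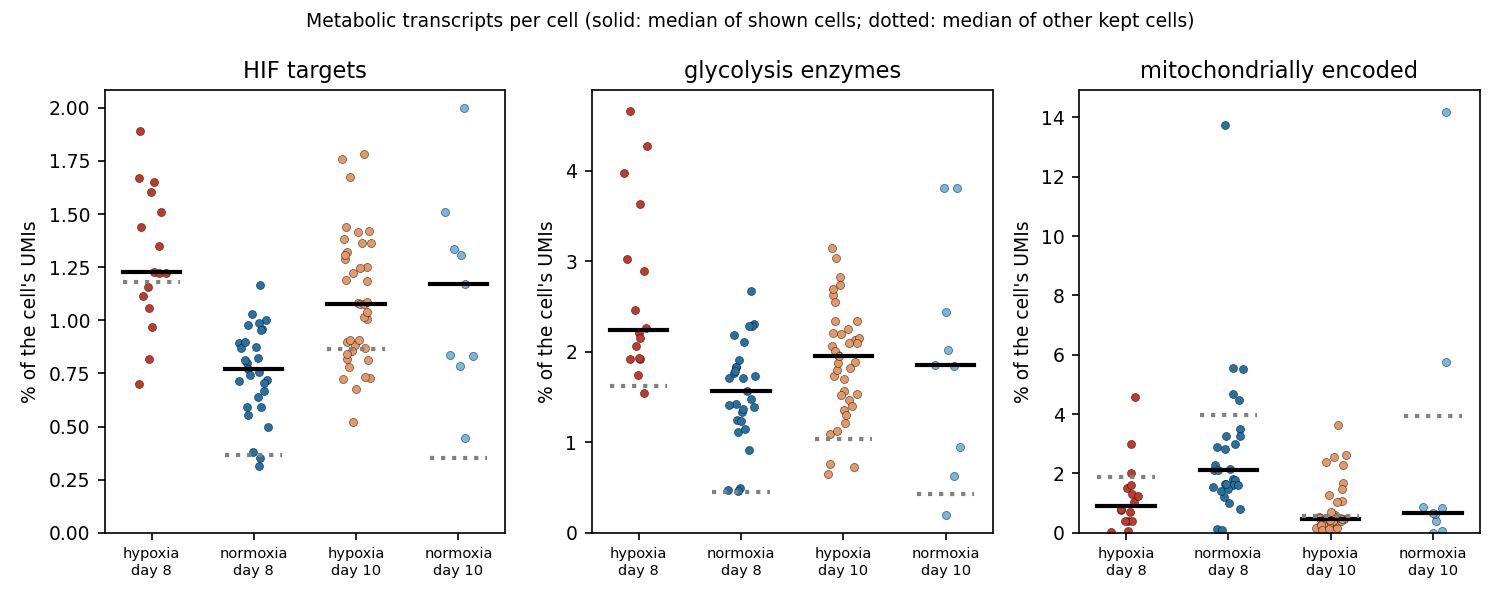
Each point is 1 high-content cell, with the percentage of its UMIs from HIF targets, glycolysis enzymes and mitochondrially encoded genes (y axes) by library (x axes); solid lines are medians of these cells and dotted lines medians of the other kept cells. The glycolysis median of normoxic high-content cells at day 8, 1.56%, lies near that of other hypoxic cells, 1.62%.

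Mitochondrially encoded transcripts took 1.37% of UMIs in hypoxia and 2.68% in normoxia in high-content cells, and 2.02% of UMIs in hypoxia and 3.84% in normoxia in other cells. Per high-content cell these transcripts took a lowest of 0.00932%, a median of 0.905% and a highest of 4.57% in hypoxia. In normoxia the lowest was 0.0937%, the median 2.11% and the highest 13.7%, so the ranges overlapped. High-content cells had 12 of the 13 genes lower by 1.5-fold or more and 0 higher (median log2 ratio -0.87), and other cells 10 lower and 0 higher (-1.14). Nuclear-encoded subunits of the respiratory chain had a median of -0.08 in high-content cells, with 1 of 73 higher and 6 lower, and the citric acid cycle a median of 0.03, with 0 of 18 higher and 0 lower. The 15% limit on these transcripts was applied before the values were taken.

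High-content cells were defined by their content of rule genes, 4 of which belong to the thick filament list (Myl7, Myl4, Myl3 and Myh6), so their sarcomere ratios are a description. Of the thick filament genes, 1 of 15 measured members were at least 1.5-fold higher and 3 at least 1.5-fold lower, with a median log2 ratio of -0.34. Of the thin filament genes, 1 of 13 measured members were at least 1.5-fold higher and 1 at least 1.5-fold lower, with a median log2 ratio of -0.16. Calcium handling genes numbered 4 higher and 5 lower of 19 (median 0.14), and cardiac transcription factors 2 higher and 4 lower of 17 (-0.03). Over all selected cells these lists lay lower, with medians of -0.95, -0.61, -0.25 and -0.60, in libraries where high-content cells gave 33.6% of UMIs in hypoxia and 53.0% in normoxia. The part of that mixture in these medians was not tested apart from the high-content values given here.

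Single cardiac genes did differ. Myl2, the ventricular regulatory light chain (mm10 chr5:122100951-122113472, plus strand), was at 7.34 CPM in hypoxia and 242 CPM in normoxia at day 8 (log2 ratio -4.86 (interval -7.33 to -3.47)). Of the ventricular-type list, 0 of 6 measured members were higher and 4 lower, with a median of -1.15. Ankrd1, a mechanosensitive titin-binding protein, was at 41.6 CPM in hypoxia and 228 CPM in normoxia (-2.43 (interval -3.27 to -1.74)), whereas in other cells it was at 74.2 CPM in hypoxia and 54.4 CPM in normoxia. Cacna1d, the L-type channel of pacemaker cells, was at 66.1 CPM in hypoxia and 453 CPM in normoxia (-2.76 (interval -3.40 to -2.21)). Smyd1, a myosin chaperone methyltransferase, was at 66.1 CPM in hypoxia and 197 CPM in normoxia (-1.56 (interval -2.22 to -0.97)), Trdn, triadin of the calcium release complex, at 22.0 CPM in hypoxia and 80.5 CPM in normoxia (-1.82 (interval -3.07 to -0.85)), and Jph2, which joins the surface membrane to the calcium store, at 71.0 CPM in hypoxia and 161 CPM in normoxia (-1.17 (interval -1.82 to -0.59)). These genes were all lower in hypoxia.

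Higher in hypoxia were Acta1, at 365 CPM in hypoxia and 84.5 CPM in normoxia (2.10 (interval 1.68 to 2.56)), and Shox2, a factor of sinus node development, at 34.3 CPM in hypoxia and 3.96 CPM in normoxia (2.83 (interval 1.27 to 5.55)). Other cells had 391 UMIs of Acta1 in hypoxia and 162 in normoxia at day 8, and 595 and 7 at day 10. High-content cells at day 10 had 3 and 0. Shox2 fell short of the minimum of 20 UMIs for lists, so it is not among the measured pacemaker-type members below. Slc8a1 was at 5450.5 CPM in hypoxia and 3911 CPM in normoxia (0.48 (interval 0.40 to 0.56)), and Camk2d, the cardiac calcium-calmodulin kinase, at 316 CPM in hypoxia and 165 CPM in normoxia (0.93 (interval 0.57 to 1.30)). Of pacemaker-type genes, 6 of 9 measured members were at least 1.5-fold higher and 2 at least 1.5-fold lower, with a median log2 ratio of 0.83. Among all selected cells the order was opposite, with 1 of 10 higher and 3 lower (median -0.32). At day 10 Shox2 was at 79.6 CPM in hypoxia, and 0 UMIs of 54956 were seen in normoxia, too few to tell a low level from none.

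**Figure D5:**
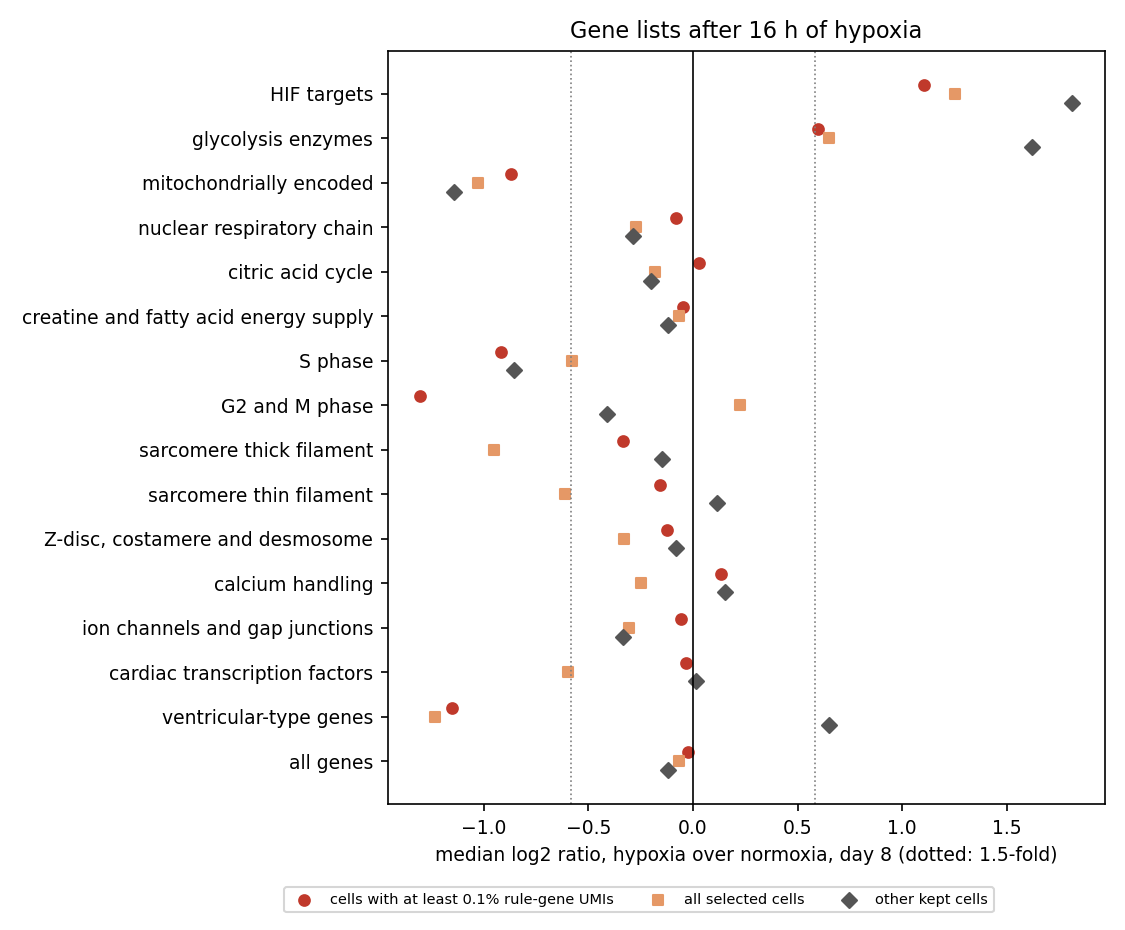
Points give each list's median log2 ratio of hypoxia over normoxia at day 8 in high-content cells, in all selected cells and in other kept cells; dotted lines mark 1.5-fold. HIF targets and glycolysis lie right of 0 and mitochondrially encoded genes left of 0 in each set of cells, while the sarcomere medians of high-content cells lie between the dotted lines.

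By size alone, the 10 highest ratios in high-content cells at day 8 were Ddit4, Tshz1, P4ha2, Ak5, Slit2, Hs6st3, Egfr, Cdkn1a, Rgs6 and Col5a2, with log2 ratios of 3.39 to 2.56. Of these, Tshz1 was at 119.9 CPM in hypoxia and 10.6 CPM in normoxia, Slit2, an axon guidance ligand, at 316 CPM in hypoxia and 48.8 CPM in normoxia, and Col5a2, a fibrillar collagen, at 137 CPM in hypoxia and 22.4 CPM in normoxia. In other cells Tshz1 was at 226 CPM in hypoxia and 230.1 CPM in normoxia, Slit2 at 336 CPM in hypoxia and 296 CPM in normoxia and Col5a2 at 289 CPM in hypoxia and 239 CPM in normoxia. All 7 fibroblast markers were at least 1.5-fold higher in hypoxia in high-content cells (median 1.70), whereas in all selected cells 0 of 7 were higher and 3 lower (median -0.42). Together they took 0.281% of UMIs in hypoxia and 0.0944% in normoxia in high-content cells and 0.679% of UMIs in hypoxia and 0.684% in normoxia in other cells. The part of fibroblast RNA in these ratios was not tested. Cdkn1a, the cell cycle inhibitor p21, was at 147 CPM in hypoxia and 23.8 CPM in normoxia (2.58 (interval 1.85 to 3.48)), and Rgs6, a regulator of G protein signals to pacemaker cells, at 176 CPM in hypoxia and 29.0 CPM in normoxia (2.56 (interval 1.90 to 3.36)).

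The 10 lowest under the same minimums were Car3, Myl2, Cenpf, Dock9, Pclaf, Lrrc10, Cacna1d, Nrgn, Cdo1 and Has2. Their log2 ratios were -4.89 to -2.55. Car3, carbonic anhydrase 3, was at 4.89 CPM in hypoxia and 174 CPM in normoxia, and in other cells at 2.29 CPM in hypoxia and 19.6 CPM in normoxia. Lrrc10, a heart-specific leucine-rich repeat protein, was at 7.34 CPM in hypoxia and 70.0 CPM in normoxia. Cenpf and Pclaf belong to dividing cells. S phase genes were lower in 18 and higher in 1 of 25 (median -0.92), and G2 and M phase genes lower in 28 and higher in 0 of 35 (-1.30), in high-content cells. In other cells these medians were -0.86 and -0.41, and in all selected cells the G2 and M phase median was 0.22, with 11 of 52 higher and 2 lower. G2 and M phase genes took 0.115% of UMIs in hypoxia and 0.255% in normoxia in high-content cells and 0.378% of UMIs in hypoxia and 0.527% in normoxia in other cells.

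In all selected cells at day 8 the highest ratios were those of Ghrl (3.58), Reps2, Ier3, Pfkfb3, Ndrg1, Chsy3, Ddit4, Nrg1, Lrrc3b and Afp (2.72), and the lowest those of Myl2 (-5.22), Adarb2, Nav3, Car3, Has2, Unc5c, Nrgn, Cacna1d, Cited1 and Asb4 (-2.53). Ghrl and Afp came from low-content cells: high-content cells had 0 UMIs of Ghrl in both libraries. Of Afp they had 0 UMIs in hypoxia and 41 in normoxia, at least 7.37-fold lower in hypoxia against a floor of 3 counts.

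After 48 h of hypoxia at day 10, all selected cells summed together had higher HIF targets and lower mitochondrially encoded transcripts. High-content cells gave 64.1% of these UMIs in hypoxia and 12.8% in normoxia. In high-content cells alone, the HIF target shares of hypoxia and normoxia lay close together, as given below. Of the genes of all selected cells, 232 of 4114 (5.64%) were at least 2-fold higher and 471 (11.4%) at least 2-fold lower, and with TMM scaling 441 were higher and 311 lower, with a median of all genes of 0.10 in place of -0.17. At 1.5-fold, 16.2% of 7191 genes were higher and 29.0% lower, and in other cells 11.0% higher and 43.4% lower (median -0.45). Of the HIF targets, 25 of 39 measured members were at least 1.5-fold higher and 1 at least 1.5-fold lower, with a median log2 ratio of 0.71, against a median of 1.25 in other cells. Of glycolysis enzymes, 10 of 18 measured members were at least 1.5-fold higher and 2 at least 1.5-fold lower, with a median log2 ratio of 0.65, against 0.72 in other cells. Of mitochondrially encoded genes, 12 of 13 were lower (median -1.64), and in other cells 13 (-2.02).

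For high-content cells at day 10 no ratio was formed against the 9 normoxic cells, and levels are given instead. HIF targets took 1.06% of UMIs in hypoxia and 1.02% in normoxia in high-content cells, and 0.887% of UMIs in hypoxia and 0.385% in normoxia in other cells. Glycolysis enzymes took 1.89% of UMIs in hypoxia and 1.80% in normoxia in high-content cells, and 1.09% of UMIs in hypoxia and 0.479% in normoxia in other cells. The HIF target share per cell had a lowest of 0.522%, a median of 1.08% and a highest of 1.78% in hypoxia, and a lowest of 0.446%, a median of 1.17% and a highest of 2.00% in normoxia, so the ranges overlapped. Mitochondrially encoded transcripts took 0.716% of UMIs in hypoxia and 1.79% in normoxia in high-content cells, with a median per cell of 0.470% in hypoxia and 0.651% in normoxia. In 1 normoxic cell they took 14.2%, and without it the normoxic level was 0.859%. Vegfa was at 171 CPM in hypoxia and 200.2 CPM in normoxia in high-content cells and at 147 CPM in hypoxia and 37.1 CPM in normoxia in other cells. Slc2a1 was at 959.8 CPM in hypoxia and 892 CPM in normoxia in high-content cells and at 938 CPM in hypoxia and 189 CPM in normoxia in other cells. Ldha was at 2473 CPM in hypoxia and 1819.6 CPM in normoxia in high-content cells and at 1072 CPM in hypoxia and 433 CPM in normoxia in other cells.

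Sarcomere genes at day 10 depended on which cells were summed. For all selected cells, thick filament genes had 6 of 13 higher and 1 lower in hypoxia (median 0.48), in libraries where high-content cells gave 64.1% of UMIs in hypoxia and 12.8% in normoxia. When each selected cell was weighted equally, Myl7 was lower in hypoxia, with a log2 ratio of -0.82 in place of 1.20. In high-content cells the thick filament list took 0.832% of UMIs in hypoxia and 2.34% in normoxia, and the thin filament list 0.971% of UMIs in hypoxia and 1.62% in normoxia, the opposite order. These cells were chosen by rule genes, some of them in the thick filament list, so this order is a description. A shallow cell needs a larger share of rule-gene UMIs to meet the rule. The median depth of high-content cells was 9995 UMIs in hypoxia and 1685 in normoxia, and the part of depth was not tested. Ttn was at 665 CPM in hypoxia and 799 CPM in normoxia in all selected cells and at 1038 CPM in hypoxia and 6150.4 CPM in normoxia in high-content cells. Myh6 was at 965 CPM in hypoxia and 294 CPM in normoxia in all selected cells and at 1501 CPM in hypoxia and 2256 CPM in normoxia in high-content cells.

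Among single genes in all selected cells at day 10, Rbp4, Lgals3, Phlda2, Tnfrsf22 and Cnn1 had 0 UMIs in normoxia and were at least 19.9-fold, 10.8-fold, 10.6-fold, 10.4-fold and 8.22-fold higher in hypoxia against a floor of 3 counts in each library's selected cells. Of the 126 UMIs of Rbp4 in hypoxia, 120 were in low-content cells, and the endoderm rule was met by 2 selected cells in hypoxia and 0 in normoxia. Tnfrsf22 had all its 66 UMIs in high-content cells. Tnfrsf23, Pcdh11x, Slc5a3, Ppm1d and Mrps6 followed. Slc5a3, the myo-inositol transporter, was at 178 CPM in hypoxia and 14.0 CPM in normoxia (log2 ratio 3.58 (interval 2.52 to 5.14)), and at 211 CPM in hypoxia and 54.6 CPM in normoxia in high-content cells. It lies within the Mrps6 gene on the same strand, so counts of the pair may be shared. Lowest were C77080, Dcn, Opcml, Ccl2, Ptn, Ccbe1, Actg2, Nhs, Plxna2 and Col1a2, with log2 ratios of -5.69 to -3.34. Dcn, decorin, was at 16.6 CPM in hypoxia and 477 CPM in normoxia in all selected cells and Col1a2, collagen I, at 168 CPM in hypoxia and 1710.1 CPM in normoxia. Fibroblast markers took 0.141% of UMIs in hypoxia and 0.672% in normoxia of the selected cells, and 0.0773% of UMIs in hypoxia and 0.0164% in normoxia of the high-content cells. Ankrd1 was at 780.0 CPM in hypoxia and 946 CPM in normoxia in high-content cells, and Fabp3, a fatty acid binding protein of heart, at 190.2 CPM in hypoxia and 182 CPM in normoxia.

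With age under normoxia, 304 of 5736 genes of all selected cells (5.30%) were at least 2-fold higher at day 10 and 517 (9.01%) at least 2-fold lower than at day 8. At 1.5-fold, 16.1% of 8908 genes were higher and 23.7% lower (median -0.07). Thick filament genes were lower in 10 and higher in 2 of 14 (median -1.29), and fibroblast markers higher in 5 of 7, while high-content cells gave 12.8% of the UMIs at day 10 and 53.0% at day 8. The lowest ratios were those of Rbp4 (0 UMIs at day 10, at least 187-fold lower against the floor of 3 counts), Spink1, Ttr, S100g, Nepn, Apom, Tdgf1, Ghrl, Car3 and Cited1, and the highest those of Cemip (6.49), Ccl2, C77080, Sema3e, Gpr39, Pld5, S100a6, Kcnab1, Megf6 and Nkain3. Rbp4, Spink1, Ttr, S100g, Nepn, Apom and Ghrl came almost wholly from low-content cells: of the 1873 UMIs of Rbp4 at day 8, 1858 were in low-content cells. The endoderm rule was met by 5 selected cells at day 8 and 0 at day 10, and the part of these cells in the ratios was not tested. In high-content cells, Ttn was at 6150.4 CPM at day 10 and 3811 CPM at day 8, Myh6 at 2256 CPM at day 10 and 989 CPM at day 8, Myl7 at 4877 CPM at day 10 and 6496 CPM at day 8 and Ankrd1 at 946 CPM at day 10 and 228 CPM at day 8. Car3 had 0 UMIs at day 10 and was at 174 CPM at day 8 in high-content cells.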

How the data were processed

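Each library's deposited matrix held whole UMI counts per gene and cell, made by the authors with Cell Ranger 7.1.0 against mm10, per the submitters' processing notes. Accumax was used to dissociate the embryoid bodies, and cells were strained, per the labels' protocols. No source used here says whether intronic reads were included. The files listed 32285 gene IDs, of which 32158 matched GENCODE M21, the source of mm10 coordinates (1-based). No doublet caller was run, and the counts of cells meeting another class's rule are given instead.

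The counts of each set of cells were added up within a library and scaled to CPM of that set's total. Ratios are log2 of CPM + 1 (pandas 2.3.3, scipy 1.17.1 and numpy 2.4.6 under Python 3.11.15). Intervals at 95% are exact Poisson for levels, exact conditional binomial for the plain ratio without the pseudocount, and Clopper-Pearson for shares. They cover counting error only. Ratios were formed only where both libraries held at least 10 cells. For gene counts, the mean of the 2 libraries had to reach 20 CPM and their sum 50 UMIs. For lists these were 5 CPM and 20 UMIs, with a 1.5-fold line. With 1 library per group, no test was run. TMM scaling (edgeR 4.0.16) and other alternatives are given at the end.

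Named genes were the rule genes and other markers, members of cardiac lists, the 10 highest and 10 lowest ratios per comparison (without ribosomal, mitochondrial, globin and unnamed genes), and list members with large ratios. The highest and lowest ratios were taken among genes that met the minimums for gene counts. The cells and lists were chosen with earlier results of these data known. High-content cells were defined after seeing the data. The scripts were tested on simulated data.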

Additional observations from a re-analysis of the deposited data

Results flagged for a closer look

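In all selected cells, the rule genes and some other sarcomere genes lay lower in hypoxia at day 8 and higher in hypoxia at day 10, and the difference was not tested. The median log2 ratio of the rule genes was -0.96 over the 7 measured at day 8 and 1.02 over the 6 measured at day 10. These genes chose the cells, so their values are a description. Other cardiac lists were mixed at day 10. Thin filament genes had a median of 0.48, the 20 other cardiomyocyte markers 0.45, atrial-type genes 0.32 and ion channel and gap junction genes 0.26. Cardiac transcription factors had a median of -0.33, calcium handling genes -0.15 and ventricular-type genes -0.35. Pacemaker-type genes had -0.78, and Z-disc, costamere and desmosome genes -0.03. With the mean of each cell's CPM the rule-gene median at day 10 was -0.32. Myl7, the atrial light chain, had a log2 ratio of -1.07 at day 8 and 1.20 at day 10. Tnnc1, troponin C, had a log2 ratio of -1.01 at day 8 and 1.32 at day 10. High-content cells gave 33.6% of the selected cells' UMIs in hypoxia and 53.0% in normoxia at day 8, and 64.1% in hypoxia and 12.8% in normoxia at day 10. In high-content cells at day 8 the ratio of Myl7 was -0.42 and that of Tnnc1 -0.44, and at day 10 Myl7 was at 2390.0 CPM in hypoxia and 4877 CPM in normoxia.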

How the results depend on the processing

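Each group is 1 library, so these values show only how the arithmetic depends on choices. The settings for high-content cells and for leaving out the deepest selected cell were added after seeing the data. With at least 3 rule genes the share of selected cells was 2.33% in hypoxia and 3.91% in normoxia at day 8, and 2.92% in hypoxia and 2.65% in normoxia at day 10. With at least 5 it was 0.448% in hypoxia and 0.726% in normoxia at day 8, and 0.650% in hypoxia and 0.187% in normoxia at day 10. With cells thinned to 5000 UMIs, which leaves out shallower cells, it was 0.409% in hypoxia and 0.710% in normoxia at day 8 and 0.0795% in normoxia at day 10. Without cells that meet another class's rule it was 0.209% in hypoxia and 0.158% in normoxia at day 8, the opposite order, and 0.650% in hypoxia at day 10. With high-content cells it was 0.478% in hypoxia and 0.915% in normoxia at day 8. The order of hypoxia and normoxia was otherwise the same at both ages under the 8 settings tried.

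Genes at least 2-fold different moved by more than 1.5 times as follows. With at least 3 rule genes they numbered 160 higher and 118 lower at day 8, 352 higher and 1004 lower at day 10, and 198 higher and 259 lower with age. At day 8, 208 were higher with at least 5 rule genes, 214 higher and 146 lower after thinning, 173 higher in high-content cells, and 208 higher and 125 lower with a pseudocount of 10 CPM. With the minimum mean raised to 50 CPM, 163 were higher and 89 lower at day 8, 143 higher at day 10 and 191 lower with age. With no filter on low genes, 1317 were higher and 2113 lower at day 8, 3267 higher and 3327 lower at day 10, and 1852 higher and 3491 lower with age. TMM scaling gave 441 higher and 311 lower at day 10. With the mean of each cell's CPM, 640 were higher at day 10, and 501 higher and 1271 lower with age.

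Some log2 ratios changed sign, and the cause was not tested. At day 8 the medians became 0.055 for cardiac transcription factors after thinning, and with at least 3 rule genes 1.40 for erythroid, -0.16 for endoderm and 0.055 for smooth muscle markers. Endoderm markers had -1.20 with at least 10 rule-gene UMIs. Afp had -6.21 after thinning and -5.78 in high-content cells, where hypoxia had 0 UMIs, so that this ratio is set by the pseudocount and the bound is at least 7.37-fold lower. Nppa had -0.69 with at least 3 rule genes, against 1.26 in all selected cells (18 UMIs in hypoxia and 8 in normoxia), while high-content cells had 0 UMIs in hypoxia and 6 in normoxia. In high-content cells the day 8 medians were 0.83 for pacemaker-type genes and 1.70 for fibroblast markers, against -0.32 and -0.42 in all selected cells. At day 10, with the mean of each cell's CPM, S phase had a median of 0.27, the rule genes -0.32, Myl7 -0.82, Myh6 -0.16, Tnni3 -1.47 and Tnnc1 -0.21, and Actg2 had 1.51 with at least 3 rule genes. With age, the mean of each cell's CPM gave medians of 0.0037 for thick filament genes, 0.019 for the 20 other cardiomyocyte markers and 0.53 for erythroid markers.

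For thinned, 5-gene, other-class and high-content settings, fewer than 10 cells remained in normoxia at day 10, and for the other-class setting also at day 8, so no ratios were formed. No paired analysis was possible because each group has 1 library. Depth limits the values most in normoxia at day 10, where high-content cells held 54956 UMIs.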
